A study of Homo sapiens with 28 samples.

Results

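The regions described here carried the bivalent pair of histone marks in 1 phase of the cell cycle and lacked at least 1 of the marks in each of the other 3 phases. H3K4me3 peaks of 4 sorted fractions of human embryonic stem cells were merged wherever they overlapped by at least 1 bp, which gave 32799 regions. A region was bivalent in a phase when an H3K4me3 peak and an H3K27me3 peak of that phase both overlapped it. Of the 32799 regions, 8055 were bivalent in at least 1 phase and 3527 in exactly 1 (10.8% of all regions and 43.8% of those ever bivalent). The remaining bivalent regions comprised 1357 that were bivalent in 2 phases, 1227 in 3 phases and 1944 in all 4. The members were chosen by the presence or absence of H3K4me3 and H3K27me3 peaks in the 8 lists of these marks, so their counts, and the widths and heights of those peaks, are given as a description with no test, and nothing is read from the 10.8%.

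The cells were Fucci human embryonic stem cells, a line with fluorescent reporters whose abundance follows the cell cycle. They were grown without serum or feeder cells in a defined medium with heregulin b1, activin A, LongR3 IGF-1 and FGF2, which all groups shared. They were sorted into early G1 (DN), late G1 (KO2), S phase (AzL) and G2/M (AzH), in the order kept below. ChIP-seq of each fraction gave peak lists of H3K4me3, H3K27me3, H3K4me1 and H3K27ac, and 4C-seq, which measures the contacts of a chosen site (the viewpoint) with the rest of its chromosome, was run from 2 viewpoints near the GATA6 and SOX17 promoters. There was 1 library per mark and fraction, so differences between phases have no replicate check, and the exact 95% intervals given with shares cover counting error only. A sorted fraction is a mixture of cells at nearby points of the cycle, and nothing in the labels states the purity of the sort.

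Trithorax-group complexes of the COMPASS family deposit H3K4me3, the mark of active and poised promoters, and Polycomb repressive complex 2 deposits H3K27me3, the mark of Polycomb-repressed chromatin. In embryonic stem cells both marks occur together at many CpG-rich promoters of developmental regulators, a state called bivalent, at which transcription is low. H3K27ac occupies the same lysine as H3K27me3, so a single histone tail cannot carry both, and it is found at active promoters and enhancers. H3K4me1 is the mark of enhancers and of the flanks of promoters. The comparison across phases asks where in the cycle the paired state is listed.

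The H3K4me3 lists held 24757, 25653, 25977 and 28735 peaks in early and late G1, S and G2/M. The H3K27me3 lists held 23755, 31682, 19989 and 26480 peaks, with 27.02, 32.0, 17.2 and 24.3 Mb covered. The S-phase list of H3K27me3 was thus the shortest, and the late G1 list the longest. S was also the phase with the fewest members below, and the part of list length in the counts was not tested beyond the values with lists of equal length. The depth of the ChIP libraries is unknown here. The authors' peak heights were missing for chromosomes coded 22 to 24, so heights are given for 3285 of the 3527 members. Members were not assigned to genes, because no annotation of the files' genome build was at hand, and the regions are identified by hg19 coordinates.

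With all deposited peaks, the regions bivalent in 1 phase numbered 1293 in early G1, 748 in late G1, 354 in S phase and 1132 in G2/M. They made up 27.4% of the 4721 regions bivalent in early G1 (95% interval 26.1 to 28.7), 16.2% of 4612 in late G1 (15.2 to 17.3), 9.96% of 3553 in S (8.998 to 11.0) and 23.5% of 4812 in G2/M (22.3 to 24.8). Against all regions with H3K4me3 in the phase, these counts were 5.87% in early G1, 3.63% in late G1, 1.6% in S phase and 4.79% in G2/M, background values of the rule itself from which nothing is read. With lists of equal length in every phase of a mark, the counts were 1446, 611, 349 and 742, so that the G2/M count was lower by more than 1.5 times. With peaks of at least 500 bp they were 681, 230, 39 and 131. With the upper 50% of each list by score they were 274, 331, 58 and 448, and with gaps of 500 bp merged 781, 348, 164 and 814. S held the fewest under each of these settings, while the order of the other phases changed with the setting.

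The largest class had H3K27me3 throughout and H3K4me3 in 1 phase. In 1504 members (42.6%, 41.0 to 44.3), H3K4me3 alone was missing in each of the other 3 phases, so that H3K27me3 was listed in all 4. In 589 members (16.7%, 15.5 to 17.97), H3K27me3 alone was missing and H3K4me3 was listed in all 4. Both marks were missing in the other 3 phases in 359 members (10.2%, 9.20 to 11.2), and 1075 members (30.5%, 29.0 to 32.0) had a mixture of these states. Counted by mark, 2456 members (69.6%) had H3K4me3 in 1 phase, and 1504 (42.6%) had H3K27me3 in all 4.

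**Figure D1:**
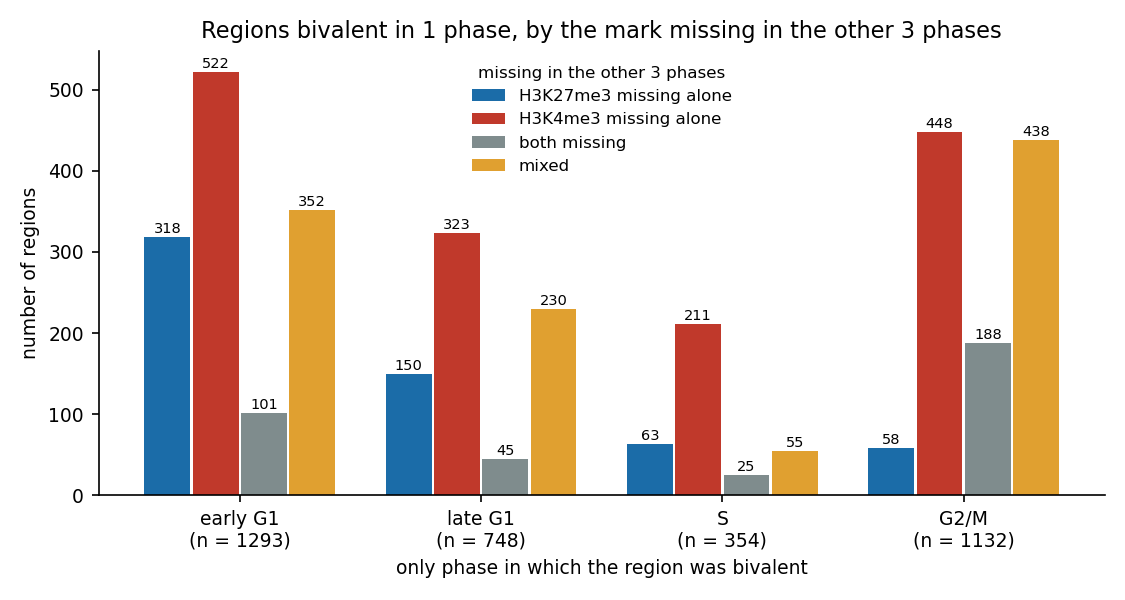
Number of regions bivalent in 1 phase, grouped along the x axis by that phase and coloured by which mark was missing in the other 3 phases. H3K4me3 missing alone is the tallest bar in every phase (522, 323, 211 and 448 regions), and H3K27me3 missing alone is lowest in G2/M (58) and S (63).

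The classes were divided differently in G2/M than in early G1. H3K27me3 missing alone accounted for 318 of 1293 early G1 members (24.6%), 150 of 748 late G1 members (20.05%), 63 of 354 S members (17.8%) and 58 of 1132 G2/M members (5.12%, 3.91 to 6.57). Both marks missing accounted for 101, 45, 25 and 188 members, which was 7.81%, 6.02%, 7.06% and 16.6%. H3K4me3 missing alone accounted for 522, 323, 211 and 448 members, or 40.4%, 43.2%, 59.6% and 39.6%. Within the mixed class, the most frequent pattern of early G1 members was H3K27me3 alone in late G1 and neither mark in S and G2/M (88 regions). For G2/M members it was neither mark in early G1 and H3K27me3 alone in late G1 and S (127 regions).

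Members bivalent in G2/M seldom had H3K4me3 in any other list. An H3K4me3 peak overlapped 6.45% of them in early G1 (5.09 to 8.04), 16.8% in late G1 and 10.2% in S. For early G1 members the H3K4me3 shares were 27.4% in late G1, 30.9% in S phase and 34.7% in G2/M. H3K27me3 peaks were more widely shared. They overlapped 43.9%, 60.2% and 58.9% of the G2/M members in early G1, late G1 and S, and 61.0%, 66.1% and 63.6% of the S members in early G1, late G1 and G2/M.

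**Figure D2:**
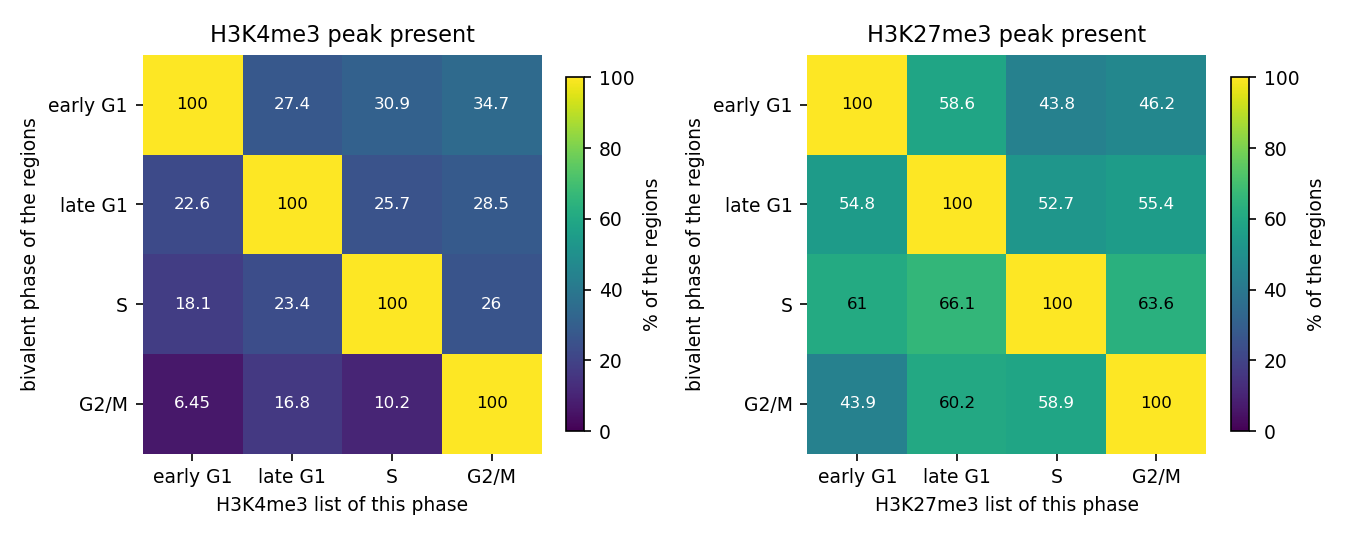
Share of members (%, colour and number) overlapped by an H3K4me3 peak (left) or an H3K27me3 peak (right) in each list (columns), by the phase in which they were bivalent (rows). The diagonal is 100 by the rule, the lowest share off it is 6.45% for H3K4me3 in early G1 at G2/M members, and the H3K27me3 shares off the diagonal lie between 43.8% and 66.1%.

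Most members were small places at the low end of the H3K4me3 list. The median member was 200 bp wide (quartiles 125 and 400 bp), against 975 bp for the 1944 regions bivalent in all 4 phases and 1375 bp for the 12283 regions with H3K4me3 in all 4 phases and H3K27me3 in none. The 11250 merged regions with H3K4me3 in 1 phase, 2456 of them members, had a median of 150 bp. A small width was thus not particular to members. The H3K4me3 peak stood at a median percentile of 20.6 by height within its own list, where 100 is the tallest peak, and 867 of 3285 members (26.4%, 24.9 to 27.9) lay in the lowest 10% of the list. The H3K27me3 peak stood at a median percentile of 77.8 and was 900 bp wide. Both marks lay above the 50th percentile of their lists in 183 of 3285 members (5.57%, 4.81 to 6.41). The peaks of both marks overlapped each other directly, and not only the merged region, in 3440 of 3527 members (97.5%). For the 2456 members with H3K4me3 in 1 phase this follows from the rule, since the region is the H3K4me3 peak itself. Of the members lacking H3K27me3 alone, it held for 534 of 589 (90.7%, 88.0 to 92.9).

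Members that lacked H3K4me3 alone were narrow H3K4me3 peaks inside broad, tall H3K27me3 domains. Their H3K4me3 peak was 150 bp wide at the median (quartiles 100 and 225 bp), at percentile 12.9 of its list, and 570 of 1423 lay in the lowest 10%. The H3K27me3 peak over them was 3175 bp wide (quartiles 1700 and 6175 bp), at percentile 94.05. A domain of at least 5 kb covered 473 of the 1504 (31.5%, 29.1 to 33.9), and the widest reached 140925 bp. In height as deposited, the H3K4me3 peaks had medians of 20.8 in early G1, 17.4 in late G1, 16.6 in S phase and 16.6 in G2/M. At the regions bivalent in all 4 phases the H3K4me3 medians were 53.1, 40.9, 37.8 and 43.7.

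The H3K27me3 domain over these members had its highest median width in early or late G1 and its lowest in S. For the 522 early G1 members, the median width was 3825 bp in early G1, 3662 bp in late G1, 1975 bp in S and 2925 bp in G2/M. For the 448 G2/M members the widths were 2838, 3538, 1888 and 3062 bp, and for the 211 S members 2425, 2975, 1550 and 2525 bp. Regions bivalent in all 4 phases likewise had their lowest median in S, with medians of 1825, 1850, 925 and 1350 bp.

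**Figure D3:**
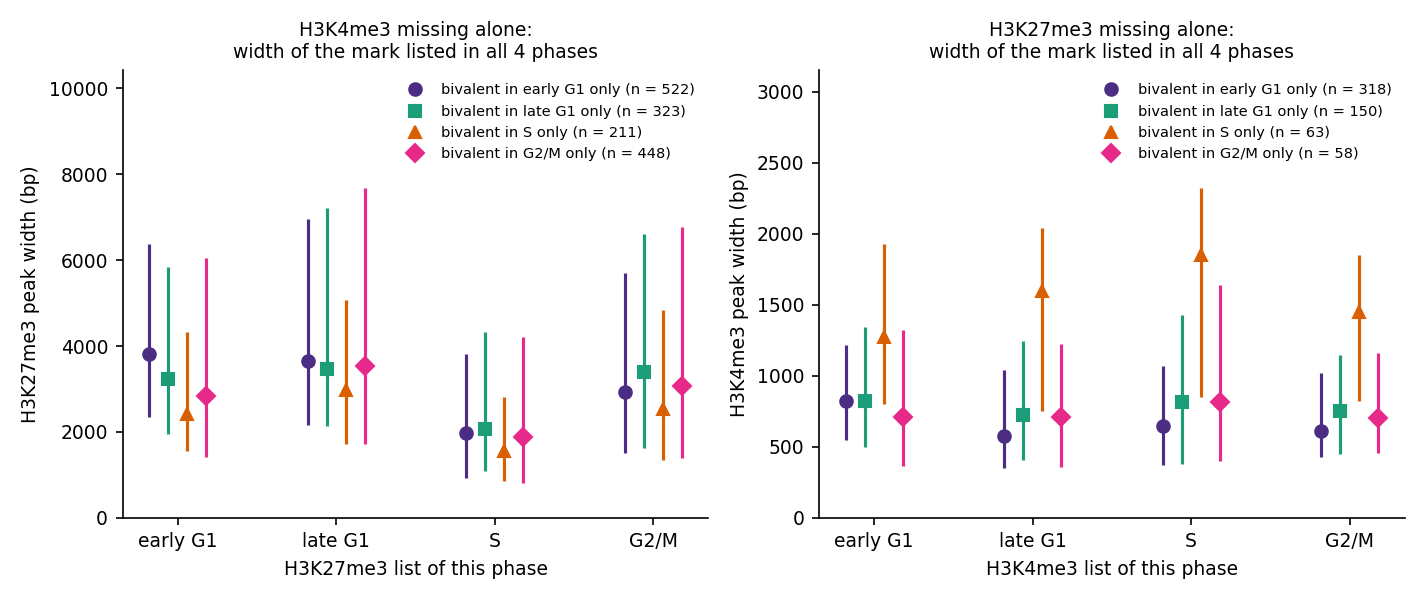
Width in bp of the mark that was listed in all 4 phases, for members lacking H3K4me3 alone (left, H3K27me3 width) and members lacking H3K27me3 alone (right, H3K4me3 width). Points are medians and lines run between the quartiles, the x axis gives the list and the colour and marker the bivalent phase. On the left the S list gives the lowest medians for every set (1550 to 2075 bp), and on the right the S members are the widest in every list (1275 to 1850 bp).

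Single regions show the pattern. Those named here ranked among the highest of the class by their weaker mark, so their H3K4me3 peaks were wider and taller than the class medians. Their H3K4me3 percentiles were 38.9, 64.1, 62.5 and 46.2 in the order given, against 12.9 for the class. The region at chr4:158143326-158144175 had an H3K4me3 peak of 850 bp and height 42.9 in early G1 and none in late G1, S or G2/M. It lay in H3K27me3 peaks of 3275, 4725, 3250 and 4150 bp with heights of 153.9, 207.3, 160.7 and 143.6 in early and late G1, S and G2/M. H3K27me3 was thus high throughout, at percentile 93.8 or above in each list. The region at chr1:48175301-48175650 had H3K4me3 in G2/M only, 350 bp wide with height 57.8, in H3K27me3 peaks of 5975, 7650, 3400 and 6550 bp. Its nearest other H3K4me3 region was 200875 bp away. The region at chr14:61123476-61123825 had an H3K4me3 peak of 350 bp in G2/M only, inside H3K27me3 domains of 24425, 25075, 22975 and 22150 bp. Another H3K4me3 region lay 50 bp from it. In late G1, the member of this class whose weaker mark ranked highest was at chr10:35928626-35929175, where H3K4me3 of 550 bp had height 33.4 and H3K27me3 had 44.0, 47.1, 17.9 and 36.0 in the 4 lists.

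The longest shared stretch of both marks in early G1 lay in the same class. At chr8:109094401-109095475 the marks overlapped over 1075 bp, with an H3K4me3 height of 28.1 in early G1 and no H3K4me3 peak in the other phases. H3K27me3 heights there were 162.9, 107.8, 66.7 and 70.1. At chr1:75600576-75601525 they overlapped over 950 bp, inside H3K27me3 domains of 10950, 11575, 7325 and 10000 bp. Both places bordered another H3K4me3 region, at 25 and 200 bp.

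Members that lacked H3K27me3 alone were the reverse, with a broad H3K4me3 peak and a small H3K27me3 peak. The region was 1050 bp wide at the median (quartiles 700 and 1675 bp). The H3K4me3 peak was 825 bp wide at percentile 60.05, and 3 of 548 lay in the lowest 10% of the list. The H3K27me3 peak was 200 bp wide at percentile 36.5, and none of the 589 members had an H3K27me3 domain of 5 kb. Across phases the H3K27me3 medians were 275 bp in early G1, 200 bp in late G1, 125 bp in S and 125 bp in G2/M.

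The 63 S members of this class stood apart in H3K4me3. Their H3K4me3 peak was 1850 bp wide at percentile 91.2 in S, against 825 bp at percentile 57.4 for early G1 members, 725 bp at 61.6 for late G1 members and 700 bp at 67.03 for G2/M members, each in its own phase. The same S members were also the widest in the other lists, with medians of 1275, 1600 and 1450 bp in early G1, late G1 and G2/M. Their H3K27me3 peaks were no wider than 225 bp, with heights from 13.1 to 26.0. Across these members the heights of both marks were related by a Spearman rho of 0.55 (59 members of a single pair of libraries, a description without a test). In early G1, late G1 and G2/M the same class gave -0.04, -0.02 and 0.07.

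At chr17:56082951-56085600, an S member of this class, H3K4me3 had heights of 510.4, 157.7, 303.3 and 183 with widths of 1800, 1825, 2225 and 1675 bp. H3K27me3 was listed in S only, 200 bp wide with height 25.4, and H3K27ac was listed in all 4 phases. At chr14:89881951-89883800 H3K4me3 had heights of 228.8, 181.7, 199.6 and 151.2, and the H3K27me3 peak of S was 225 bp wide with height 26.0. H3K27ac was listed there in early G1, late G1 and G2/M and not in S, the phase of the H3K27me3 peak. In late G1 the region at chr19:34285951-34289850 had H3K4me3 heights of 126.9, 525.5, 601.9 and 477.1, with an H3K27me3 peak of 250 bp and height 29.0.

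Within the class, the H3K27me3 peak stood at a median percentile of 41.5 in early G1, 32.7 in late G1, 29.1 in S phase and 28.3 in G2/M. At chr6:114177351-114181000, H3K4me3 had heights of 647.4, 414.7, 489 and 378.3, at percentile 98.8 or above in every list, and H3K27me3 in early G1 was 1050 bp wide with height 46.6. H3K27ac was listed there in all 4 phases, and peaks of both H3K27 marks overlapped in early G1. At chr3:191046726-191048300, H3K4me3 had heights of 167.8, 69.6, 83.2 and 47.03 and H3K27me3 was 950 bp wide with height 64.3 in early G1. H3K27ac was listed at that place in early G1 and late G1. In G2/M, the region at chr11:64490651-64491150 had an H3K27me3 peak of 3725 bp and height 104.4 in G2/M only, with H3K4me3 heights of 113.8, 34.4, 39.3 and 74.2. The peaks of both marks shared 0 bp there, since they overlapped different stretches of the merged region.

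Members with both marks in 1 phase alone were small in both lists. Their H3K4me3 peak was 175 bp wide at percentile 19.8 and their H3K27me3 peak 175 bp at percentile 48.8. Early G1 held the wider H3K27me3 peaks, with a median of 600 bp against 175 bp in late G1, 125 bp in S and 150 bp in G2/M. Among the regions named by rank, the widest H3K27me3 peak of this class lay at chr13:36044901-36045350 in early G1, where H3K4me3 was 450 bp wide with height 51.8, and H3K27me3 9075 bp wide with height 215.4. Neither mark had a peak over it in late G1, S or G2/M. At chr1:207097326-207097875 in G2/M, the H3K4me3 peak was 550 bp wide with height 37.4 and the H3K27me3 peak 225 bp with height 22.05, both listed in that phase alone, while H3K27ac was listed in late G1.

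**Figure D4:**
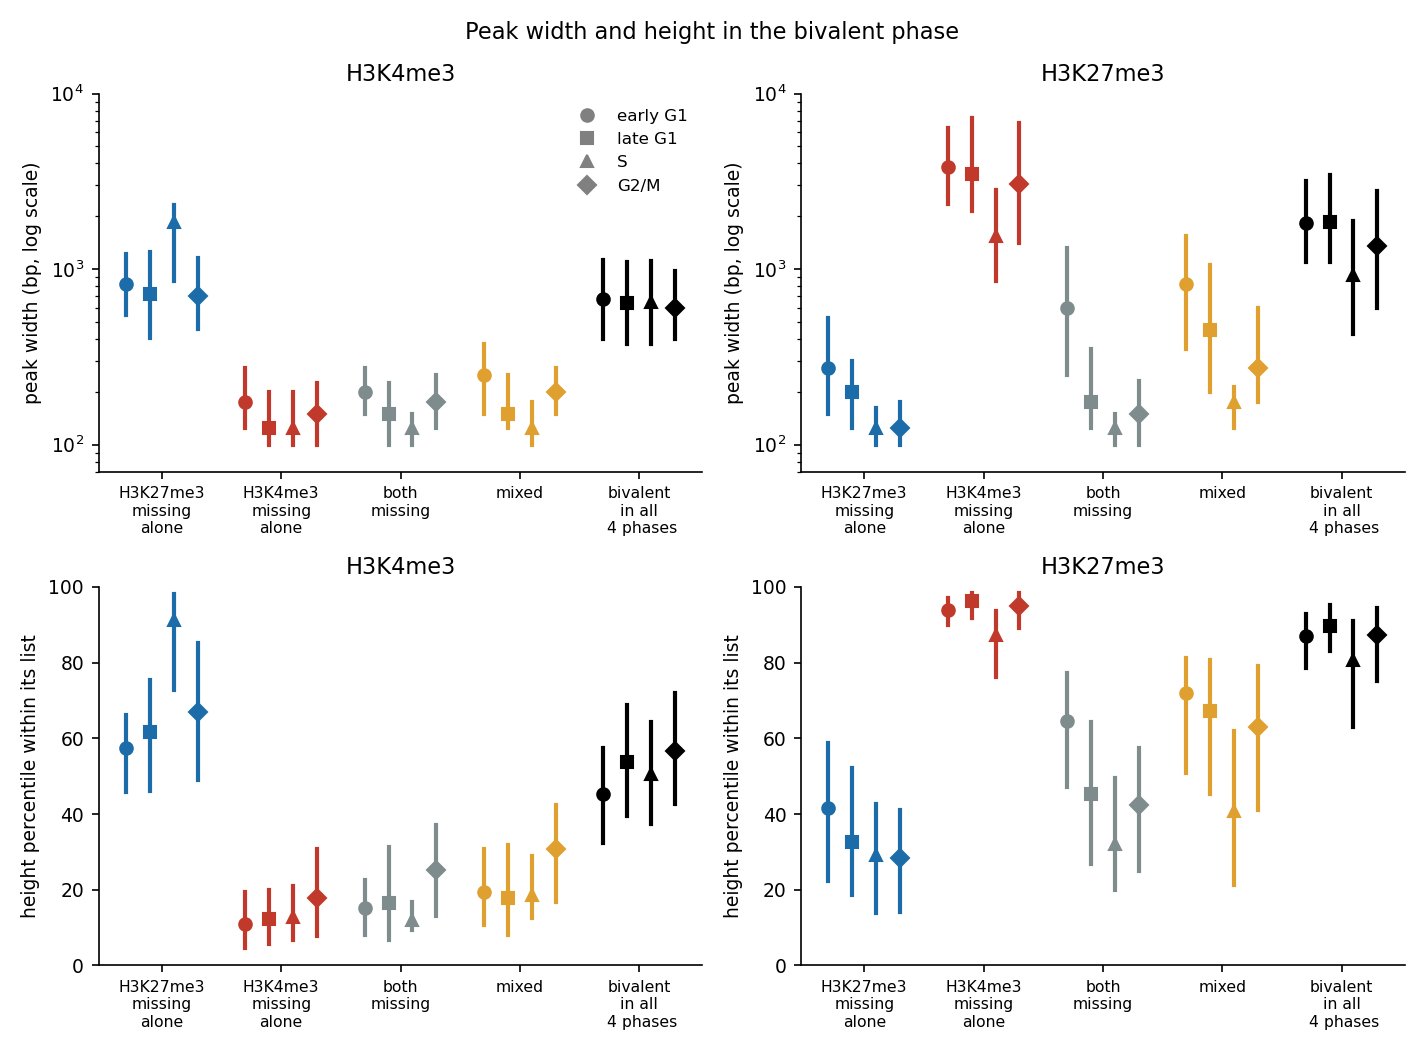
Peak width (top, bp, log axis) and height percentile within the list (bottom) of H3K4me3 (left) and H3K27me3 (right) in the bivalent phase, for the 4 classes of members and, at the right, regions bivalent in all 4 phases. Points are medians, lines run between the quartiles and markers give the phase. Members lacking H3K4me3 alone sit at H3K4me3 percentiles of 11.0 to 17.7 and H3K27me3 percentiles of 87.3 to 96.2, and S members lacking H3K27me3 alone reach an H3K4me3 percentile of 91.2.

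The rule requires an overlap of 1 bp, while all peak ends fell on steps of 25 bp. Just inside it, 34 early G1, 20 late G1 and 5 S members and 25 G2/M members had an H3K27me3 peak that overlapped the merged region by only 25 bp, with median H3K4me3 widths of 262.5, 125, 150 and 150 bp. Just outside, 40, 18, 5 and 18 regions were bivalent in no phase and had an H3K27me3 peak that ended or began directly beside them in 1 phase. Their median H3K4me3 widths were 375, 287.5, 125 and 137.5 bp. The height percentiles were 23.7, 17.2, 16.9 and 16.5 inside and 27.6, 28.7, 23.4 and 17.2 outside.

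H3K27ac was not used to choose the members. It overlapped 66 of 1293 early G1 members in early G1 (5.10%, 3.97 to 6.45), 21 of 748 late G1 members in late G1 (2.81%, 1.75 to 4.26), 20 of 354 S members in S (5.65%, 3.48 to 8.59) and 23 of 1132 G2/M members in G2/M (2.03%, 1.29 to 3.03). Among all regions with H3K4me3 in the phase, H3K27ac overlapped 37.2% in early G1, 24.2% in late G1, 6.87% in S phase and 13.5% in G2/M. The members' share lay below the background in early G1, late G1 and G2/M, and in S the background lay within the members' interval. Regions bivalent in all 4 phases had shares of 6.33%, 5.61%, 0.772% and 2.62%. Regions with H3K4me3 in all 4 phases and H3K27me3 in none had 53.0%, 36.3%, 10.3% and 21.3%.

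The H3K27ac share differed by class. Of members lacking H3K27me3 alone, H3K27ac overlapped 48 of 318 in early G1 (15.1%, 11.3 to 19.5), 15 of 150 in late G1 (10%, 5.71 to 15.96), 15 of 63 in S (23.8%, 14.0 to 36.2) and 4 of 58 in G2/M (6.90%, 1.91 to 16.7). Of members lacking H3K4me3 alone, it overlapped 3 of 522 (0.575%), 0 of 323, 0 of 211 and 3 of 448 (0.670%), where 0 of 323 allows a share of up to 0.929% and 0 of 211 up to 1.42%. Merged regions with H3K4me3 in 1 phase alone had a median width of 150 bp. Of those with H3K27me3 in no phase, H3K27ac overlapped 26.9%, 5.20%, 1.23% and 4.01% in early and late G1, S and G2/M.

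**Figure D5:**
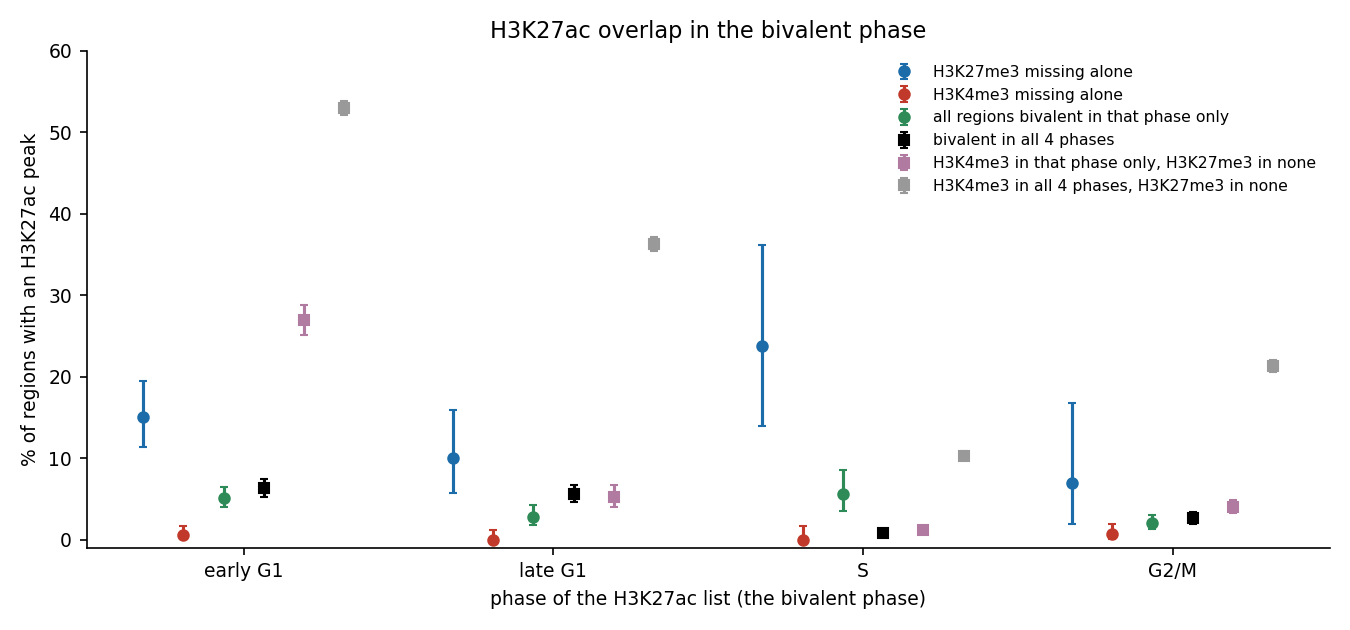
Share of regions (%) with an H3K27ac peak in the phase in which the members were bivalent, with exact 95% intervals. Round points are members, as all classes and as the 2 classes lacking a single mark, and squares are regions bivalent in all 4 phases, regions with H3K4me3 in that phase alone, and regions with H3K4me3 in all 4 phases without H3K27me3. Members lacking H3K4me3 alone lie between 0 and 0.670%. The share of S members lacking H3K27me3 alone (23.8%) is above the 10.3% of regions with H3K4me3 in all 4 phases, which were not matched for width.

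Among members lacking H3K27me3 alone, only the early G1 members had their highest H3K27ac share in the phase with H3K27me3. The 318 early G1 members had H3K27ac in 15.1%, 6.29%, 0.943% and 1.57% of cases in early and late G1, S and G2/M. The 150 late G1 members had 18%, 10%, 2% and 5.33%. The 63 S members had 57.1%, 46.0%, 23.8% and 41.3%, and the 58 G2/M members 12.1%, 19.0%, 5.17% and 6.90%. Regions with H3K4me3 in all 4 phases and H3K27me3 in none also had their highest share in early G1, with 53.0%, 36.3%, 10.3% and 21.3%. The S members lay above these regions in each list. In early and late G1 the regions' values lay within the S members' intervals (44.05 to 69.5 and 33.4 to 59.1). The lists behind these shares differed in length, with 30168, 32521, 10268 and 19525 H3K27ac peaks. With equal numbers of peaks per list, the share in the bivalent phase was 3.77% for early G1 members and 1.33% for late G1 members. Those of S and G2/M stayed at 23.8% and 6.90%. Whether early G1 members kept their highest share in early G1 with such lists was not tested.

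H3K27ac shares were higher at wider regions. Among members wider than 1 kb, H3K27ac overlapped 34 of 149 in early G1 (22.8%, 16.3 to 30.4), 13 of 82 in late G1 (15.9%, 8.72 to 25.6), 13 of 49 in S (26.5%, 14.9 to 41.1) and 3 of 40 in G2/M (7.5%, 1.57 to 20.4). Regions of that width bivalent in all 4 phases had shares of 10.5%, 8.96%, 1.51% and 4.97%, and regions never bivalent had 62.2%, 44.9%, 13.3% and 26.6%. In early G1, late G1 and G2/M the wide members thus lay below the never-bivalent regions. In S they lay above them, with intervals that did not overlap (14.9 to 41.1 and 12.6 to 14.1). Widths above 1 kb were pooled, and H3K4me3 height was not matched. S members lacking H3K27me3 alone had a median region width of 2075 bp and an H3K4me3 percentile of 91.2 in S. Regions with H3K4me3 in all 4 phases and H3K27me3 in none had 1375 bp and 73.35. Among members of at most 250 bp the shares were 0.825%, 0.821%, 1.16% and 1.37%, against 21.4%, 5.11%, 1.48% and 4.29% of never-bivalent regions of that width.

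For 200 of the 3527 members (5.67%, 4.93 to 6.48), peaks of H3K27me3 and H3K27ac overlapped each other in at least 1 phase, at the member or beside it. The share was 9.16% at regions bivalent in all 4 phases and 1.80% at all merged regions. By bivalent phase it was 4.80%, 5.61%, 11.3% and 4.95%, and it was 17.5% (9.05 to 29.1) at the 63 S members lacking H3K27me3 alone. The overlap could lie outside the member itself. Of the 323 late G1 members lacking H3K4me3 alone, 26 were counted, although H3K27ac overlapped 0 of the 323 in each list. In a population of cells the 2 marks can be listed at the same place on different alleles or in different cells, which cannot be told apart here. Without these 200 members, 3327 remained, with 1231, 706, 314 and 1076 by phase.

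H3K4me1 was listed at few members. It overlapped 3 of 1293 early G1 members (0.232%), 0 of 748 late G1 members (which allows a share of up to 0.401%), 12 of 354 S members (3.39%, 1.76 to 5.85) and 17 of 1132 G2/M members (1.502%, 0.877 to 2.39), each in its own phase. The background among regions with H3K4me3 was 0.227%, 0.398%, 0.916% and 0.788%. The early and late G1 shares were near the background, and the S and G2/M shares had intervals above it. Of regions with H3K4me3 in that phase alone and no H3K27me3, H3K4me1 overlapped 0.04566%, 0.08818%, 0.9091% and 1.497%. The G2/M value lay within the interval of the G2/M members, so no excess over these regions was shown in G2/M. The S value lay below the interval of the S members. All 4 marks were listed at once at 2 early G1 (0.155%), 0 late G1 and 2 S members (0.565%) and 7 G2/M members (0.618%). That share was not computed over other regions, so nothing is read from these counts.

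Most members lacking H3K4me3 alone had another H3K4me3 region nearby, as did most regions that were not members. Of the 1504, 1082 (71.9%, 69.6 to 74.2) had another merged H3K4me3 region within 1 kb, and 551 (36.6%, 34.2 to 39.1) lay within 5 kb of a region bivalent in all 4 phases. Among regions bivalent in all 4 phases, 65.2% had another region within 1 kb, and among those with H3K4me3 in all 4 phases and no H3K27me3, 49.2%. Of all merged regions that were not members, 57.7% had one (57.1 to 58.2). By bivalent phase the share of the 1504 within 1 kb was 69.0%, 85.4%, 93.8% and 55.4%. Of 211 S members, 147 (69.7%, 63.0 to 75.8) lay within 5 kb of a region bivalent in all 4 phases, against 95 of 448 G2/M members (21.2%, 17.5 to 25.3). Shares within 5 kb were not computed for regions that were not members, so nothing is read from them. Regions with H3K4me3 in the same phase alone and no H3K27me3 had the same order, with 53.1%, 77.8%, 89.4% and 34.0% within 1 kb of another region.

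At some members the missing mark was listed within 1 kb of the region in another phase. Of the 1504 members lacking H3K4me3 alone, 977 (65.0%, 62.5 to 67.4) had an H3K4me3 peak within 1 kb in at least 1 of the other phases, and 490 (32.6%, 30.2 to 35.0) in all 3. The same shares were 55.5% (54.4 to 56.6) and 38.9% (37.9 to 39.95) of the 8325 regions with H3K4me3 in 1 phase alone and no H3K27me3. Of the 589 lacking H3K27me3 alone, 246 (41.8%, 37.8 to 45.9) had an H3K27me3 peak within 1 kb in at least 1 other phase, and 88 (14.9%, 12.2 to 18.1) in all 3. Of the 12283 regions with H3K4me3 in all 4 phases and no H3K27me3, 752 (6.12%, 5.71 to 6.56) had an H3K27me3 peak within 1 kb in at least 1 of the 4 lists. In all 4 lists 172 did (1.40%, 1.20 to 1.62). These regions were chosen for H3K27me3 in no phase and the members for H3K27me3 in 1, so the difference is not read as a result. For S members lacking H3K4me3 alone, an H3K4me3 peak lay within 1 kb in 75.4% in early G1, 82.5% in late G1 and 78.2% in G2/M. For G2/M members the shares were 37.05% in early G1, 34.8% in late G1 and 26.6% in S. Of the 188 G2/M members with both marks missing elsewhere, 28 (14.9%) lay within 10 kb of another member.

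Of the 3527 members, 1321 (37.5%, 35.9 to 39.1) had another member within 10 kb. A member lay within 10 kb of 35.2% of the regions bivalent in all 4 phases (33.1 to 37.4), of 3.74% of those with H3K4me3 in all 4 phases and no H3K27me3, and of 10.6% of all merged regions that were not members. The intervals of the members and of the regions bivalent in all 4 phases overlapped. In all, 34 groups of at least 5 members, each within 20 kb of the next, held 245 members. By phase these were 53 of 1293 early G1, 95 of 748 late G1 and 17 of 354 S members and 80 of 1132 G2/M members. Such groups were not formed for other regions, so nothing is read from these counts. Members of such a group share their surroundings and are not independent of each other.

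The largest groups differed in their make-up. Background signal at these places was not checked, because the input libraries were not analysed. At chr1:161397976-161442400, 19 members, of which 12 were bivalent in late G1, lay among 33 H3K4me3 regions of which 12 were bivalent in all 4 phases. Here 18 of the 19 lacked H3K4me3 alone, and the H3K27me3 peak over them had a median width of 33475 bp. At chr4:49281426-49332825, 19 members, of which 14 were bivalent in late G1, lay among 52 regions of which 0 were bivalent in all 4 phases. The median widths there were 175 bp for H3K4me3 and 250 bp for H3K27me3. A neighbouring group at chr4:49093251-49144500 had 13 members, 12 of them bivalent in G2/M. The largest summed overlap of both marks in G2/M lay in that group, at chr4:49093251-49096125. The marks shared 1150 bp there, added over several peaks, since the longest H3K27me3 peak was 625 bp. The heights were 34.3 for H3K4me3 and 25.1 for H3K27me3.

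Both 4C viewpoints had a member within 10 kb. Both genes encode transcription factors of early endoderm, and the viewpoint is taken as the site with the most 4C reads. The member at chr18:19749851-19749975, at 8.37 kb from the GATA6 viewpoint, had an H3K4me3 peak of 125 bp and height 16.5 in early G1, at percentile 0.169 of its list. It lay in H3K27me3 peaks of 10150, 18800, 6100 and 18025 bp in early and late G1, S and G2/M. The member at chr8:55382776-55382875, at 9.51 kb from the SOX17 viewpoint, had an H3K4me3 peak of 100 bp and height 13.5 in G2/M, in H3K27me3 peaks of 21750, 21300, 12475 and 20650 bp. Both were thus low H3K4me3 peaks inside domains listed throughout, and the domain was narrowest in S at both. Their place within the genes was not determined, because no hg19 annotation was at hand.

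A further 6 members lay within 1 Mb of a viewpoint. The member at chr18:18820476-18820575, bivalent in S at 937.8 kb from the GATA6 viewpoint, had 2176, 2396, 2777 and 2930 4C reads per 1000000 reads on the chromosome more than 10 kb from the viewpoint, at the 3 sites within 10 kb of it. The member at chr8:54791826-54791950, bivalent in late G1 at 581.3 kb from the SOX17 viewpoint, had 5796, 6156, 6529 and 6877 at 2 sites. The G2/M members at chr18:20035751-20035900 and chr18:20138851-20139200 had 29918, 30219, 31671 and 29610 at 12 sites and 5398, 6004, 6111 and 6434 at 2 sites. The S member at chr8:56013926-56014675 had 4656, 4532, 4819 and 4902 at 11 sites, and the early G1 member at chr8:56014876-56015200 had 5130, 5295, 5629 and 5668 at 12 sites. The highest value was that of G2/M at 5 of the 6 members. It was that of the bivalent phase at 1 of the 6, the G2/M member at chr18:20138851-20139200. How often other 4C sites were highest in G2/M was not computed, so nothing is read from these counts. The members at chr8:56013926-56014675 and chr8:56014876-56015200 lie side by side with overlapping windows of 4C sites, so they are not independent. The GATA6 libraries held 8905806 to 17076409 reads and the SOX17 libraries 7491195 to 15566252.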

How the data were processed

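Fucci human embryonic stem cells were grouped by the labels into 4 phases, with 1 library per mark. Per the submitters' processing notes, the tools include Bowtie 0.12.7 and the builds mm9 and hg19; coordinates were read as hg19. No source used here gives the peak caller or the use of inputs. The deposited peak lists hold a signal column, used as height, and a negative score column, both the authors' values on an unstated scale. Heights of 0 were treated as missing. The deposited 4C table holds counts, whole reads per restriction site; PCR reads are not independent molecules.

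Members, lists and measures were chosen with earlier results of these data known. Peaks were merged and compared in Python (3.11.15; scipy 1.17.1, pandas 2.3.3, numpy 2.4.6, matplotlib 3.10.9), and class calls were tested on simulated data. Shares carry exact Clopper-Pearson 95% intervals, and a count of 0 a limit of 3 counts, for counting error only. No p-value was computed. Named regions came from a rule. It took, per class and phase, the 3 with the highest smaller height percentile of both marks on chromosomes 1 to 21. It also took the 3 longest overlaps per phase, summed over the peaks of a region. The text gives some of them, and members near viewpoints. The groups of members were chosen after their values were seen. Alternatives were stricter, longer or equal lists, other merging and other distances. The 7 planned gene lists and the 4 inputs were not analysed here.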

Additional observations from a re-analysis of the deposited data

How the results depend on the processing

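The number of regions bivalent in 1 phase (3527) moved most with the peaks admitted. With the upper 50% of each list by score it was 1111, with 274 early G1, 331 late G1 and 58 S members and 448 G2/M members. With peaks of at least 500 bp it was 1081, with 681, 230, 39 and 131. With H3K4me3 peaks merged across 500 bp gaps it was 2107, with 781 in early G1, 348 in late G1 and 164 in S phase. With equal numbers of peaks per phase the G2/M count was 742. S held the fewest members under each of these settings. G2/M held the most with the upper 50% by score and, at 814, with 500 bp gaps merged, and early G1 otherwise. The share lacking H3K4me3 alone (42.6%) was 38.5% with the upper 50% by score, 34.7% with peaks of at least 500 bp, 30.6% with gaps of 500 bp merged and 50.3% with H3K27me3 counted within 1 kb. The share lacking H3K27me3 alone (16.7%) was 21.3%, 22.5%, 26.1% and 14.85% under those settings and 14.9% where the peaks of both marks had to overlap. H3K27ac shares of all members by phase (5.10%, 2.81%, 5.65% and 2.03%) were 13.7%, 9.36%, 22.1% and 5.31% for members of at least 500 bp. In early G1 and late G1 they were 9.05% and 4.95% with H3K27ac counted within 1 kb, and 1.39% and 0.802% with equal numbers of H3K27ac peaks. The cause of these shifts was not tested. No paired analysis was possible because the labels give no replicate numbers and no result comes from a test. The main limits are 1 library per group and an unknown ChIP depth, so that a peak missing from a list may be a peak below that library's threshold.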

Other observations

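The surroundings of members with both marks in 1 phase alone differed by phase. The median distance to the next H3K4me3 region was 275 bp for early G1 members, 300 bp for late G1, 33450 bp for the 25 S members and 27712 bp for G2/M members. Regions with H3K4me3 in the same phase alone and no H3K27me3 had medians of 500, 200, 175 and 12400 bp. A longer distance in G2/M than in early or late G1 was thus not particular to the class. A region bivalent in all 4 phases lay within 5 kb of 15 of 101 early G1 members (14.9%, 8.56 to 23.3) and of 3 of 188 G2/M members (1.60%, 0.330 to 4.59). Early G1 members of the class often had H3K27me3 nearby, with a peak within 1 kb in late G1 at 81 of 101 (80.2%), while 23 of 188 G2/M members (12.2%) had one in late G1. The late G1 list of H3K27me3 was the longest. These 5 kb and 1 kb shares were not computed for regions that were not members, so nothing is read from them.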
